A study of Mus musculus with 8 samples.

Results

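The transcripts described are single-exon entries of a catalogue of long non-coding RNAs (NONCODE) that lie inside introns of protein-coding genes, in the liver of fasted and fed mice. A transcript was taken where it had 1 exon, lay wholly inside 1 protein-coding gene of GENCODE release 21 on that gene's strand, and shared no base with an annotated exon on either strand. It also had to lie outside the mitochondrial chromosome and to hold at least 50 raw reads summed over the 8 libraries. Of the 83057 transcripts in the deposited table, 44808 had 1 exon and 6214 met the rule. They lay in 2735 host genes, of which 1602 held 1 such transcript, and overlapping entries merged into 5968 separate stretches. Another 2026 intronic same-strand entries held fewer than 50 reads. Just inside that limit were entries in Nckap5, Dnm3 and Ctnna3 with 50 reads each, and just outside it entries in Dach1, Lsamp and B3galt1 with 49 reads each.

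Total RNA was sequenced from mouse liver. The mice were males of the C57BL/6 strain, bought from the Jackson Laboratory and around 20 weeks old. Of the 8 libraries, 4 came from mice without food for 24 h (fasted) and 4 from mice that ate freely (ad libitum). No allele, drug or diet other than food or its absence is named in the labels, all mice were killed at 10 am, and the labels call the 4 libraries of each group biological replicates. The question the design addresses is which liver transcripts differ between a 24 h fast and free feeding. In RNA from whole liver, fewer cells of a type and less RNA per cell cannot be told apart.

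An intron is copied into RNA together with its gene and is cut out when the RNA is spliced. A library made from total RNA keeps unspliced and excised RNA beside the mature message, so reads inside an intron can stem from the unspliced host RNA, from a cut-out intron or from a separate transcript, and counts alone cannot tell these apart. In liver, a fast is known for a fall of insulin and a rise of glucagon and fatty acids, for induction of fatty acid oxidation through the receptor PPARα, for gluconeogenesis, and for a drop of fatty acid synthesis.

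The sequences shown first are start-site windows that bear on hosts described further on. Each runs from 250 bases before to 50 bases after a RefSeq gene start on GRCm38.p6, the assembly also named mm10, 5′ to 3′ on the gene's strand. Elovl5 (chr9:77917115-77917414, plus strand) and Elovl6 (chr3:129532136-129532435, plus strand), both fatty acid elongases, held intronic transcripts that changed in opposite directions. Erbb4 (chr1:69108010-69108309, minus strand), a receptor for neuregulins, held 10 intronic transcripts that were lower in fasted livers. Gm34218 (chr4:98023052-98023351, minus strand) starts inside a tested intronic transcript of Nfia, so this window shows bases of the transcript itself, on the opposite strand. Capitals mark matches on either strand to AGGTCA (the half-site of nuclear receptors such as PPARα), TGACGTCA (the cyclic AMP response element), TGTTTAC (forkhead factors), CACGTG (the E-box) or CCAAT (the CCAAT box).
Elovl5: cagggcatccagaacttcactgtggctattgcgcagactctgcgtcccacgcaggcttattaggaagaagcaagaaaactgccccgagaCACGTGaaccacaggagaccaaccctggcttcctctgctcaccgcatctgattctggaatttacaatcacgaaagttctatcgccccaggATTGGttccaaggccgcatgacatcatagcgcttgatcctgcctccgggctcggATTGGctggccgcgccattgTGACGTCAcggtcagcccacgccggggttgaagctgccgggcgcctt
Elovl6: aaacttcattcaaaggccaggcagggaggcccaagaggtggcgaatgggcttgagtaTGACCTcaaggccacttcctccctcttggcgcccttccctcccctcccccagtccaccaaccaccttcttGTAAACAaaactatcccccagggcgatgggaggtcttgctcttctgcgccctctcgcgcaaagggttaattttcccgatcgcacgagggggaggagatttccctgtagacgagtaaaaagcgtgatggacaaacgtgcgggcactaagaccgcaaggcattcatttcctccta
Erbb4: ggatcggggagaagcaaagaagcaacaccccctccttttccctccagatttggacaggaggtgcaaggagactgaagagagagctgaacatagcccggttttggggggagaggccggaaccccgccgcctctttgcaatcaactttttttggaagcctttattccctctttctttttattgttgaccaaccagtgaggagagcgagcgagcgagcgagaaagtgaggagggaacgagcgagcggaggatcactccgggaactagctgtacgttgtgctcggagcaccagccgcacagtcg
Gm34218: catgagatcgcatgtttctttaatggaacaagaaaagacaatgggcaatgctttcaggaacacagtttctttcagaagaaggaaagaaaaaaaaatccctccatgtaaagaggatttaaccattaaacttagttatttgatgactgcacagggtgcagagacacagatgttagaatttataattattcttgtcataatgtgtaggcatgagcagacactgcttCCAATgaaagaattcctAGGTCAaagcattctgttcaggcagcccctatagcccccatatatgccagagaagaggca
The Elovl5 window held 1 cyclic AMP response element, 1 E-box and 2 CCAAT boxes. The Elovl6 window held 1 AGGTCA half-site and 1 forkhead match, the Gm34218 window 1 AGGTCA half-site and 1 CCAAT box, and the Erbb4 window none of these letters. Over all 32851 RefSeq windows of the same length, 16.3% held AGGTCA, 1.79% TGACGTCA, 3.65% TGTTTAC, 7.15% CACGTG and 37.4% CCAAT. These matches are descriptions of the letters and were not tested against the changes.

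Library totals, without the mitochondrial 16S ribosomal RNA, ranged from 90243439 to 119486211 reads in fasted livers and from 51107745 to 68691606 reads in ad libitum livers. Fasted replicates 1 to 3 stood apart from the other libraries. On the first principal component of all tested transcripts, which held 47.6% of the variance, they lay at -90.5 to -103, fasted replicate 4 at 4.37 and the ad libitum libraries at 66.6 to 75.3. Most counts of the intronic transcripts were even numbers. Among counts of 21 to 200 reads, 21.9 to 22.8% were odd in fasted replicates 1 to 3, 11.5% in fasted replicate 4 and 8.91 to 10.7% in the ad libitum libraries. This technical measure moved with 3 of the 4 fasted libraries, and its part in the changes was not tested. For that reason, results are also given for fasted replicate 4 alone against the 4 ad libitum libraries. Summed levels of the hepatocyte markers with an exonic catalogue entry (Apob, Cps1, Hnf4a and Ttr, 4 of 7) ran from 1540 to 2110 CPM (reads relative to the TMM-scaled library total) in fasted and from 658 to 892 CPM in ad libitum livers, with no overlap, and its part in the changes was not tested. The other 3 hepatocyte markers, and the 4 red cell markers, had no catalogue entry over their exons. Markers of endothelial cells (5 of 6 with an entry) summed to 91.6 to 107 CPM in fasted and 91.4 to 121 CPM in ad libitum livers, and those of stellate cells (6 of 7) to 29.2 to 77.0 CPM in fasted and 22.7 to 39.8 CPM in ad libitum livers. Kupffer cell markers (2 of 6) summed to 3.45 to 4.07 CPM in fasted and 4.15 to 5.6 CPM in ad libitum livers. These were lower in fasted livers, also with no overlap, and the part of this difference in the changes was not tested. Cholangiocyte markers (4 of 5) summed to 0.941 to 1.35 CPM in fasted and 0.917 to 1.99 CPM in ad libitum livers.

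Typically, the intronic transcripts were long single-exon stretches in large genes, by median 9.6 kb from the exon upstream and 13.4 kb from the exon downstream. Their median length was 2092 bases (205 to 17708). The median span of their host was 163 kb, taken over transcripts, so a host with many entries counts many times. The third of the host nearest its 5′ end held 41.7% of them and the third nearest its 3′ end 25.2%, and 11.8% began within 1 kb of the exon upstream. The deposited coding-potential score (CNCI) was above 0, the side of coding sequence, for 0.354% of them. They took 1.68, 1.62, 1.18 and 1.29% of the reads of fasted replicates 1 to 4, against 1.49, 1.37, 1.47 and 1.5% in ad libitum replicates 1 to 4. The means were 1.44 ± 0.244% in fasted and 1.45 ± 0.0584% in ad libitum livers (SD, n = 4 each). The fasted values lay on both sides of the ad libitum range, so the groups overlapped. The 10 most abundant transcripts held 5.89% of these reads and the top 1000 held 61.5%.

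The most abundant intronic transcripts belonged to hosts of varied function, and several of them differed between the groups. The entry in Fam214a (chr9:75019156-75022855) had 166, 112, 164 and 152 CPM in fasted livers, against 63.0, 79.9, 68.2 and 69.2 CPM in ad libitum livers. It begins directly at the end of the exon upstream, and the next exon downstream is 0.729 kb away. All fasted values exceeded all ad libitum values, and the log2 change, fasted over ad libitum, was 1.08 ± 0.13 (SE, adjusted p = 0.00011, edgeR). Both subunits of the peptidase of the inner mitochondrial membrane held an abundant transcript that fell. The Immp1l entry, which overlaps an opposite-strand catalogue entry, averaged 92.4 ± 7.22 CPM in fasted and 133 ± 4.23 CPM in ad libitum livers (log2 change -0.53, adjusted p = 0.0023, edgeR). The Immp2l entry averaged 59.1 ± 4.87 CPM in fasted and 76.7 ± 2.76 CPM in ad libitum livers (log2 change -0.38, adjusted p = 0.016, edgeR). It was the only 1 of 13 tested Immp2l entries that passed. Over those 13 the median log2 change was 0.01, and 7 were positive. Rcan2, an inhibitor of calcineurin, and Adk, adenosine kinase, held entries that fell by 0.47 and 0.38 on the log2 scale (adjusted p = 0.0037 and 0.013, edgeR). Entries in Errfi1 (an inhibitor of the EGF receptor), Egfr, Nav3, Htr2c (a serotonin receptor) and Lsamp were also among the 10 most abundant and did not pass the test. The Egfr entry had 52.2, 163, 49.6 and 73.5 CPM in fasted livers and 192, 129, 145 and 223 CPM in ad libitum livers, with fasted replicate 2 inside the ad libitum range (log2 change -1.03 ± 0.44, adjusted p = 0.17, edgeR). Per kb of length, the Errfi1 entry was the highest of these 10, at 116 CPM per kb over the 8 libraries, followed by Lsamp at 78.3 CPM per kb and Egfr at 30.5 CPM per kb.

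After the fast, 341 intronic transcripts rose and 348 fell, among 5669 that held enough reads to be tested with edgeR's quasi-likelihood test at an adjusted p under 0.05. Of the 6214 transcripts, 545 were not tested because of low counts. The 689 that changed are 12.2% of those tested, against 17.2% of all 40840 catalogue transcripts tested in the same fit. By direction, 6.02% of the intronic transcripts rose, against 9.55% of all transcripts, and 6.14% fell, against 7.67%. A change of at least 2-fold was found for 151 that rose and 86 that fell, 237 in all, while 7.93% of all transcripts passed both limits. The median log2 change was -0.02 over the intronic transcripts and 0.01 over all transcripts tested. Fasted and ad libitum values did not overlap for 920 of those tested, or 16.2%, against 19.3% of all transcripts, and for 557 of the 689 that changed. At an unadjusted p under 0.05, 1418 passed, or 25.0%, against 31.3% of all transcripts. The counts moved with single libraries. Without fasted replicate 4, 583 rose and 451 fell, and 437 changed at least 2-fold. Without fasted replicate 1, 2 or 3, 182, 224 or 211 rose and 207, 270 or 193 fell, and without ad libitum replicate 4, 222 rose.

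Changes were more often called where the signal was higher, and the intronic share stayed below that of all transcripts at each level. With a mean of at least 5 CPM, 26.1% of 652 intronic transcripts changed, against 32.8% of 6727 transcripts of the whole table. Below 0.5 CPM the shares were 6.23% of 1461 and 9.0% of 14171. In the lowest band 72 rose and 19 fell, while at 5 CPM and above 72 rose and 98 fell. Intronic entries on the strand opposite to their host changed in 12.5% of 425 tested, with 30 up and 23 down. Single-exon entries over 5 kb from any coding gene changed in 15.4% of 7477 tested, with 780 up and 374 down. The transcripts that fell lay in longer hosts, with a median span of 259 kb, against 127 kb for those that rose and 149 kb for those tested and not called. Their median distance to the next exon downstream was 25.2 kb, against 10.4 kb for those that rose and 12 kb for those not called. Hosts recur in these sets, so the spans describe these transcripts and carry no test.

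In fasted replicate 4 alone, 76 intronic transcripts were higher and 52 lower than in the ad libitum libraries, 2.26% of those tested, against 3.29% of all transcripts (2.06% higher and 1.23% lower). With library totals in place of TMM scaling the split turned, to 35 higher and 64 lower, as the median log2 change of all transcripts moved from -0.02 to -0.19. This comparison uses the same ad libitum libraries and takes the spread of the lone library to be like that of the others. Fasted replicate 4 is also among the fasted libraries that gave the 689 calls, so the agreement counted next is partly built in. Of the 689 changed transcripts, 115 also passed there in the same direction and 666 had the same sign. Fasted replicate 4 lay beyond all 4 ad libitum libraries for 288 of the 341 that rose and for 326 of the 348 that fell.

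**Figure D1:**
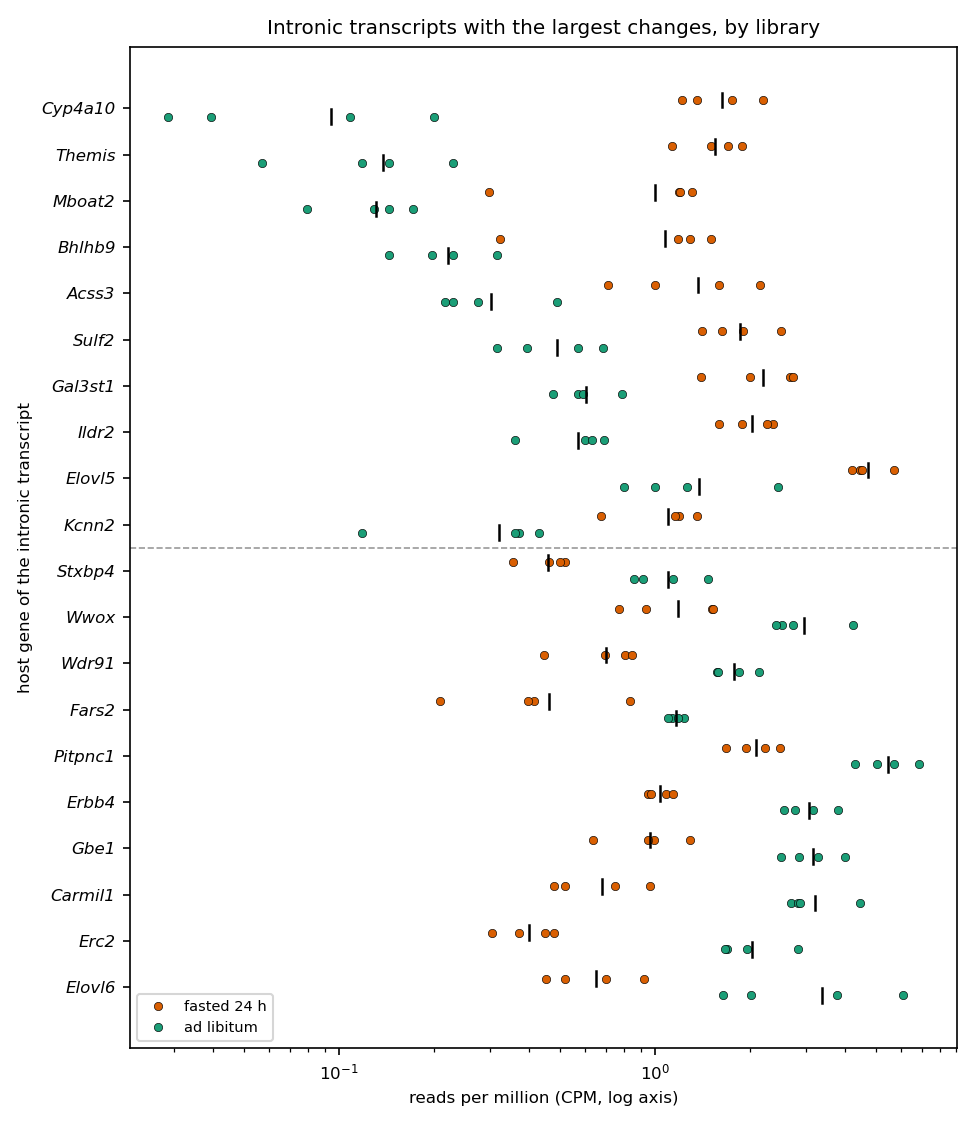
Reads relative to library size (CPM, log axis) of the 10 intronic transcripts with the largest rises (above the dashed line) and the 10 with the largest falls, 1 point per library and a bar at the group mean, fasted above ad libitum in each pair. The groups do not overlap in any of the 20, which the rule for naming required. It also required at least 1 mean CPM in the higher group and took 1 entry per host. In Mboat2 and Bhlhb9 the lowest fasted point is fasted replicate 4, at 0.299 and 0.324 CPM.

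Under the rule for naming, the largest rises, by log2 change, were in Cyp4a10, Themis, Mboat2 and Bhlhb9. That rule asked for a pass, at least 1 mean CPM in the higher group and no overlap between the groups. Each host entered with 1 such entry, that of lowest p. The plot of CPM by library shows the 10 largest rises of this set beside its 10 largest falls. Large rises outside the set, such as those in Cdh12 (4.31, groups overlapping) and Serpina1e (3.37, mean under 1 CPM), are given further on. The entry in Cyp4a10 (NONMMUT048784.2, chr4:115520718-115520970), a fatty acid hydroxylase and classic target of PPARα, had 1.75, 1.36, 2.19 and 1.22 CPM in fasted livers, against 0.200, 0.108, 0.0394 and 0.0287 CPM in ad libitum livers. Its log2 change was 4.06 ± 0.41 (adjusted p = 3.9e-05, edgeR), and it passed in fasted replicate 4 alone at 3.64 (adjusted p = 0.00067, edgeR). Cyp4a10 has near-identical neighbours, and how reads that map to several places were counted is not given in the sources used here, so its level is uncertain.

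Themis, which encodes a signalling protein of T cells, held an entry (chr10:28748349-28752320) with 1.70, 1.5, 1.88 and 1.13 CPM in fasted and 0.0571, 0.144, 0.118 and 0.230 CPM in ad libitum livers. The log2 change was 3.48 ± 0.33 (adjusted p = 1.3e-05, edgeR) and 3.03 in fasted replicate 4. Over the T and B cell markers, Themis among them, 5 of 6 had an exonic entry, and their sum was 6.31 to 9.63 CPM in fasted and 6.33 to 9.80 CPM in ad libitum livers, ranges that overlap. The other 2 tested entries in T and B cell marker genes, both in Skap1, did not pass. Elovl5, an elongase of polyunsaturated fatty acids, held an entry with 4.45, 5.70, 4.21 and 4.51 CPM in fasted and 0.8, 2.45, 1.26 and 1.00 CPM in ad libitum livers (log2 change 1.79 ± 0.30, adjusted p = 0.0046, edgeR). Fasted livers were all above ad libitum livers here, and the start-site window of this gene is printed above.

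Acss3, a mitochondrial acyl-CoA synthetase for short chains, Sulf2, a sulfatase of heparan sulfate, Gal3st1, a sulfotransferase of glycolipids, and Ildr2, an immunoglobulin-domain protein of the endoplasmic reticulum, held entries with log2 changes of 2.14, 1.93, 1.87 and 1.82. In fasted replicate 4 these 4 were at 2.38, 1.95, 1.22 and 1.98, and each passed there too. For Mboat2, a lysophospholipid acyltransferase, 3 fasted libraries decided the value, with 1.19, 1.2, 1.31 and 0.299 CPM in fasted and 0.171, 0.144, 0.0789 and 0.129 CPM in ad libitum livers. Its log2 change of 2.91 was 1.16 in fasted replicate 4 (adjusted p = 0.21, edgeR). Bhlhb9 was alike, with a log2 change of 2.26 and of 0.52 in fasted replicate 4 (adjusted p = 0.63, edgeR), as was Kcnn2, a calcium-activated potassium channel, with 1.76 and 1.04 (adjusted p = 0.25, edgeR).

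Under the same rule for naming, the deepest falls, by log2 change, were in Elovl6, Erc2, Carmil1 and Gbe1. The Elovl6 entry (chr3:129611215-129612607), in the gene of an elongase of saturated and monounsaturated fatty acids, had 0.701, 0.452, 0.520 and 0.923 CPM in fasted livers, against 6.11, 3.78, 2.01 and 1.64 CPM in ad libitum livers. Every fasted value was below every ad libitum value, the ad libitum values differed widely, and the log2 change was -2.40 ± 0.47 (adjusted p = 0.013, edgeR). Gbe1, the glycogen branching enzyme, held an entry (chr16:70523226-70524945) with 1.29, 0.638, 0.990 and 0.948 CPM in fasted and 3.29, 3.99, 2.86 and 2.50 CPM in ad libitum livers (log2 change -1.71 ± 0.21, adjusted p = 0.00013, edgeR). Fasted replicate 4 alone gave -1.73 (adjusted p = 0.016, edgeR).

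Erc2, a scaffold protein of synapses, held an entry that averaged 0.401 ± 0.0785 CPM in fasted and 2.03 ± 0.547 CPM in ad libitum livers (log2 change -2.35, adjusted p = 2.1e-05, edgeR). Carmil1, a regulator of actin capping, held one that averaged 0.678 ± 0.226 CPM in fasted and 3.21 ± 0.832 CPM in ad libitum livers (log2 change -2.26, adjusted p = 5.2e-05, edgeR). Both passed in fasted replicate 4 alone, at -2.18 and -2.09. The other falls of this set were in Erbb4 (-1.57), Pitpnc1 (a phosphatidylinositol transfer protein, -1.40), Wdr91 (-1.36), Fars2 (the mitochondrial phenylalanyl-tRNA synthetase, -1.36), Wwox (-1.32) and Stxbp4 (-1.26). For Fars2 the value was -0.48 in fasted replicate 4 (adjusted p = 0.60, edgeR), where its 0.835 CPM lay above the other fasted libraries at 0.208 to 0.414 CPM and below the ad libitum libraries at 1.10 to 1.24 CPM.

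**Figure D2:**
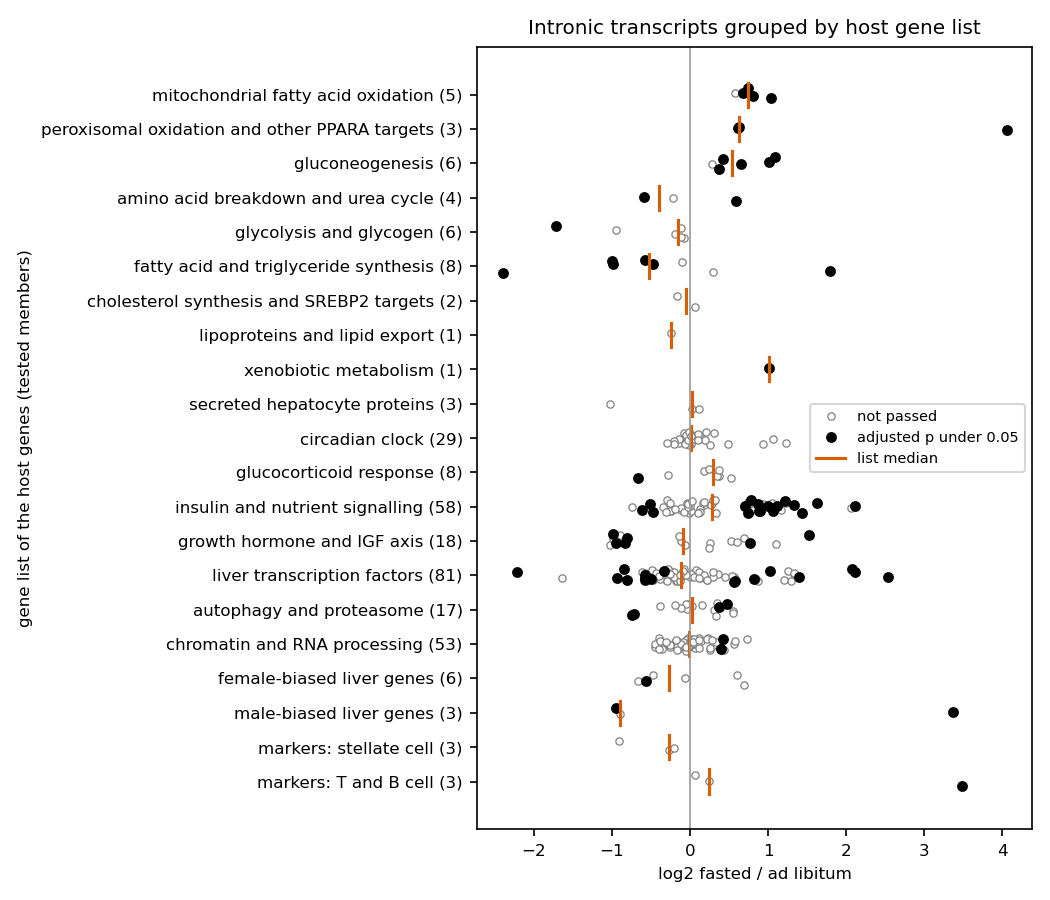
Log2 change, fasted over ad libitum, of each tested intronic transcript (point) in the host genes of 21 gene lists, with the number of tested transcripts in brackets, filled where adjusted p was under 0.05 in edgeR, and a bar at the list median. Entries of the oxidation and gluconeogenesis lists lie above 0, 5 of the 8 entries of fatty acid synthesis are filled and below 0, and no entry of the clock list is filled.

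Host genes were grouped into lists by function, and each count below stands beside 9.55% of all transcripts that rose, 7.67% that fell and a median log2 change of 0.01. Intronic transcripts of genes that burn fatty acids rose. In the list of mitochondrial fatty acid oxidation, 4 of 5 rose and none fell, with a median log2 change of 0.74. Cpt2, which hands long-chain fatty acids to the matrix as CoA esters, held an entry with 7.34, 6.84, 6.52 and 6.56 CPM in fasted, against 2.66, 3.60, 3.08 and 3.90 CPM in ad libitum livers (log2 change 1.04 ± 0.13, adjusted p = 0.00013, edgeR). The groups did not overlap. The other 4 entries all lay in Etfa, a subunit of the electron transfer flavoprotein, so this list rests on 2 hosts. Among them, 3 rose, by 0.68 to 0.81 on the log2 scale, and the 1 that did not pass was at 0.58 (adjusted p = 0.053, edgeR). All 3 entries in the list of peroxisomal oxidation and other PPARα targets rose, in Cyp4a10 and at 2 places in Ppara itself. The larger Ppara entry (chr15:85758969-85762561) had 41.2, 30.8, 34.1 and 39.7 CPM in fasted and 25.0, 17.9, 24.1 and 27.7 CPM in ad libitum livers (log2 change 0.62 ± 0.14, adjusted p = 0.0072, edgeR). Both Ppara entries overlap an entry on the opposite strand, and whether reads were counted by strand is not given in the sources used here.

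Entries in genes of glucose production also rose. In the gluconeogenesis list 5 of 6 entries rose and none fell, with a median of 0.54. Mpc1, part of the carrier that brings pyruvate into mitochondria, held 2 overlapping entries with log2 changes of 1.01 and 1.09, which can share reads and count as 1 place. Both also overlap a catalogue entry on the opposite strand. The first had 7.81, 6.64, 7.76 and 8.73 CPM in fasted and 3.80, 3.60, 3.51 and 4.45 CPM in ad libitum livers, with no overlap, and passed in fasted replicate 4 at 1.18 (adjusted p = 0.00078, edgeR). Fbp1, the gluconeogenic fructose bisphosphatase, held an entry at 7.41 ± 0.339 CPM in fasted and 4.71 ± 1.14 CPM in ad libitum livers (log2 change 0.65, adjusted p = 0.0085, edgeR). Slc25a13, the aspartate-glutamate carrier, held 2 entries that rose, with log2 changes of 0.43 and 0.37, and 1 at 0.28 that did not pass. In the list of amino acid breakdown, with 4 entries and a median of -0.39, the entry in the liver glutaminase Gls2 rose (log2 change 0.59, adjusted p = 0.018, edgeR) and 1 of 2 entries in glutamate dehydrogenase, Glud1, fell (-0.59, adjusted p = 0.046, edgeR). Of 6 entries in glycolysis and glycogen genes, with a median of -0.15, the Gbe1 entry fell and the others did not pass. The single entry of the xenobiotic list, in the cytochrome P450 reductase gene Por, rose, with 27.5, 26.3, 28.1 and 33.1 CPM in fasted and 17.1, 13.6, 13.1 and 13.4 CPM in ad libitum livers (log2 change 1.01 ± 0.12, adjusted p = 6.9e-05, edgeR).

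Transcripts in genes of fatty acid and triglyceride synthesis mostly fell. Of 8 entries, 5 fell and 1, in Elovl5, rose, with a list median of -0.52. Acaca, the acetyl-CoA carboxylase of the first committed step, held 2 entries that fell, with log2 changes of -1.0 and -0.99, and 1 at -0.10 that did not pass (adjusted p = 0.84, edgeR). The first of them had 1.02, 0.846, 0.990 and 1.17 CPM in fasted and 2.40, 2.30, 1.56 and 1.78 CPM in ad libitum livers, with no overlap. The Dgat2 entry, in the gene of a triglyceride synthase, averaged 15 ± 1.17 CPM in fasted and 20.8 ± 0.633 CPM in ad libitum livers (log2 change -0.47, adjusted p = 0.0048, edgeR). The Me1 entry, in the gene of an NADPH-producing malic enzyme, was at -0.58 (adjusted p = 0.006, edgeR), and Elovl6 is described above. None of the 8 passed in fasted replicate 4 alone, where their median was -0.61. The entry in Srebf2, the master regulator of cholesterol synthesis, did not pass (log2 change -0.17, adjusted p = 0.68, edgeR), nor did the Abca1 entry of the lipid export list (-0.24, adjusted p = 0.20, edgeR). The 3 entries of the list of secreted hepatocyte proteins did not pass either, and they include the Egfr entry described above, in a receptor gene.

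Hormone and nutrient signalling genes showed changes in both directions. Of 58 entries in insulin and nutrient signalling hosts, 14 rose and 3 fell, with a median of 0.29, and 13 of the 14 lay in 1 gene, Pde4d. The remaining rise was in Sesn3, a sestrin, with a log2 change of 1.43 in all fasted libraries and 0.41 in fasted replicate 4. The 3 falls were all in Pik3r1, the regulatory subunit of the insulin-activated lipid kinase, with log2 changes of -0.47 to -0.62. The 18 entries in growth hormone and IGF genes had 2 rises, 4 falls and a median of -0.09, with 0 to 2 rises over the alternatives other than fasted replicate 4 alone. Among them, 3 of 4 entries in Ghr, the growth hormone receptor, fell. The first (chr15:3535113-3536560) had 13.8, 9.88, 9.47 and 11.6 CPM in fasted and 25.6, 18.3, 24.1 and 20.8 CPM in ad libitum livers (log2 change -0.99 ± 0.14, adjusted p = 0.00035, edgeR). Bcl6, a repressor, held 1 entry that fell (-0.95, adjusted p = 0.026, edgeR), while 1 entry each in Igf1r, the IGF receptor (0.77, adjusted p = 0.023, edgeR), and Igfbp2, an IGF binding protein (1.52, adjusted p = 0.032, edgeR), rose. The glucocorticoid list had 1 passing entry of 8, in Tsc22d3 (GILZ), a gene known to be induced by glucocorticoids, and it fell, with 11.8, 11.7, 16.1 and 12.2 CPM in fasted and 24.3, 18.4, 19.8 and 20.1 CPM in ad libitum livers (log2 change -0.67 ± 0.13, adjusted p = 0.0029, edgeR). The median of those 8 entries was 0.30, of the opposite sign.

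None of the 29 tested entries in circadian clock genes passed, 23 of them in Rora, a nuclear receptor of the clock. Their median log2 change was 0.02, and the largest, in Rora, was 1.23 (adjusted p = 0.16, edgeR). Of 53 entries in genes of chromatin and RNA processing, those in Arid1a and Setd5 rose, with log2 changes of 0.40 and 0.43, and 51 did not pass (median -0.01). Autophagy and proteasome genes had 17 tested entries, with rises in Ube2e2 (0.48) and Psmd14 (0.37) and falls in Atg4c (-0.74) and Ulk2 (-0.72), a kinase that starts autophagy. The Arid1a and Atg4c entries overlap catalogue entries on the opposite strand. The 81 entries in liver transcription factor genes gave 8 rises and 9 falls, with a median of -0.12, and 4 to 12 rises and 4 to 16 falls over the same alternatives. Zbtb20 held 5 of the falls, the lowest p at chr16:43279470-43281900 with 3.46, 3.27, 3.59 and 3.77 CPM in fasted and 6.63, 7.21, 6.11 and 6.77 CPM in ad libitum livers (log2 change -0.93 ± 0.11, adjusted p = 8.6e-05, edgeR). Nfia held 2 rises, with log2 changes of 0.57 and 0.82, and the first of these transcripts contains the Gm34218 window. Trim24, of the female-biased list, held an entry that fell (-0.56, adjusted p = 0.029, edgeR). In the male-biased list a short entry in Serpina1e, 1 of a family of near-identical protease inhibitors whose reads may be shared, rose (3.37, adjusted p = 0.00019, edgeR) and the Bcl6 entry fell. The 3 tested entries in Reln, a stellate cell marker, did not pass, the largest change being -0.91 (adjusted p = 0.084, edgeR).

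Several hosts carried many intronic transcripts. In 224 hosts with at least 5 tested entries, which held 2029 of them, the log2 change had a median within-host SD of 0.26 and an SD of 0.58 over all these entries. All entries had 1 sign in 67 of these hosts, and both signs occurred in 157. Entries of 1 host are read from the same gene in the same libraries and are not independent of each other. Some also overlap each other and can share reads, among them entries of Pde4d, Map3k13, Adk and Gk. The 689 changed transcripts lay in 450 hosts, of which 248 held rises alone, 189 falls alone and 13 both. Of the hosts with the most tested entries, Naaladl2 had 2 rises and 1 fall in 110 (2.73%) and B3galt1 5 falls in 68 (7.35%). Lsamp had 3 rises and 3 falls in 52 (11.5%), Nrg1 3 rises and 2 falls in 49 (10.2%), and Cdh12 3 rises and 2 falls in 32 (15.6%). The share over all tested intronic transcripts was 12.2%.

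**Figure D3:**
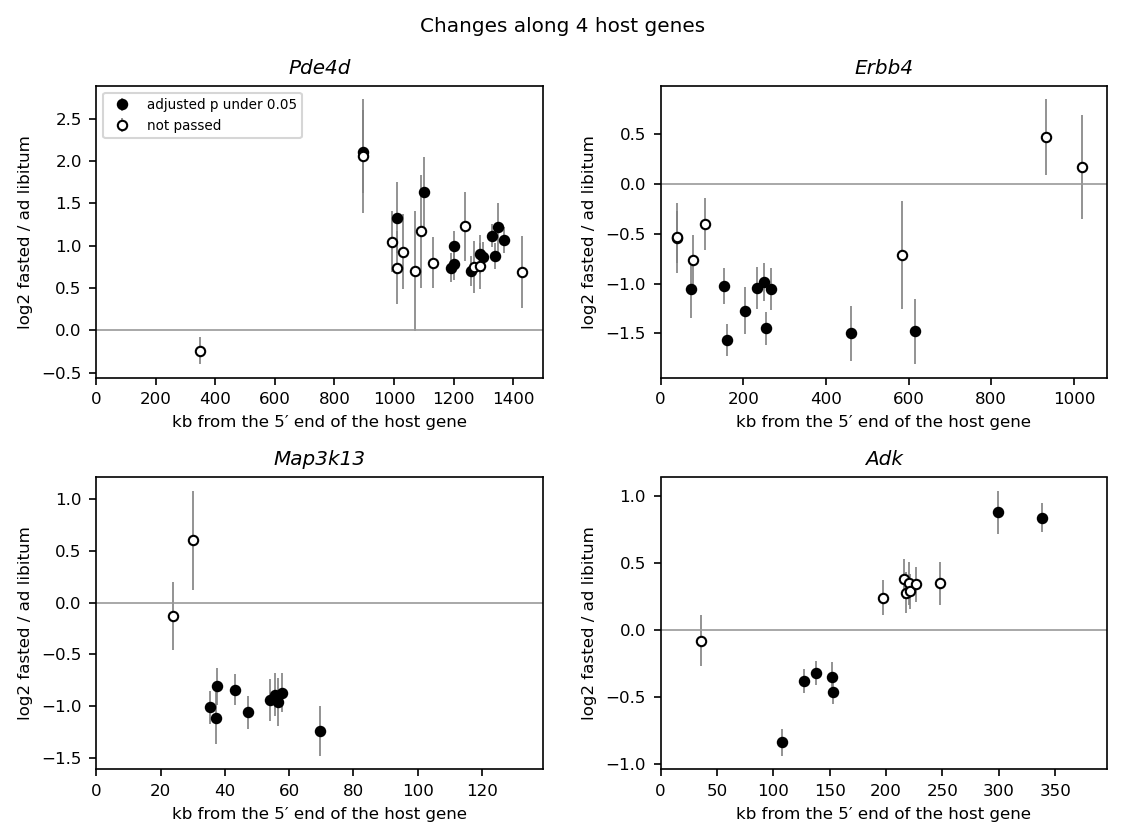
Log2 change, fasted over ad libitum, of each tested intronic transcript against its distance in kb from the 5′ end of the host gene in Pde4d, Erbb4, Map3k13 and Adk, with bars of 1 SE, filled where adjusted p was under 0.05 in edgeR. In Pde4d all 24 entries from 895 kb on lie above 0, in Erbb4 all 15 up to 615 kb lie below 0, and in Adk the sign changes between 153 and 197 kb.

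Pde4d, a phosphodiesterase that breaks down cyclic AMP, the messenger of glucagon, had the most rises, 13 of 25 tested entries. The 24 entries from 895 to 1430 kb into the gene all had a positive log2 change, with a median of 0.91, and the 1 entry at 347 kb was at -0.24 and did not pass. The strongest (NONMMUT019258.2, chr13:109779563-109782076) had 4.86, 5.47, 4.95 and 5.19 CPM in fasted livers, against 2.37, 2.05, 2.05 and 2.93 CPM in ad libitum livers (log2 change 1.12 ± 0.14, adjusted p = 0.00011, edgeR). The next (chr13:109822746-109827784) had 8.99, 8.35, 7.10 and 10.1 CPM in fasted and 4.29, 3.92, 3.15 and 5.04 CPM in ad libitum livers. In both, fasted and ad libitum values did not overlap. Fasted replicate 4 gave a positive value for 22 of the 24, and 5 passed there. GENCODE annotates transcript starts in Pde4d at many places, among them at 666.3, 810.7 and 992.2 kb. The 5 entries from 1330 kb on, among them both with values given here, overlap catalogue entries on the opposite strand.

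Falls along 1 host were most numerous in Erbb4 and Map3k13. Map3k13, the further hosts named after it, and the single entries of Erbb4, Adk, Zfhx3, Erc2, Cdh12, Slit3 and Adamtsl1 given by position were singled out after their values were seen. In Erbb4, 10 of 17 entries fell, all of them between 74.2 and 615 kb. The entry of lowest p (chr1:68945478-68948511) had 1.08, 0.949, 1.14 and 0.973 CPM in fasted and 2.57, 3.16, 3.79 and 2.78 CPM in ad libitum livers (log2 change -1.57 ± 0.16, adjusted p = 2.8e-05, edgeR). All 15 entries up to 615 kb were negative, also in fasted replicate 4, while the 2 at 932 and 1020 kb were at 0.47 and 0.17 and did not pass. Map3k13, a kinase upstream of stress-activated MAP kinases, held 10 falls in 12 entries. They lay at 35.3 to 69.5 kb, with a median of -0.95, all negative in fasted replicate 4, and GENCODE annotates a transcript start at 31.6 kb. The 2 entries before that start were at -0.13 and 0.60 and did not pass. Further hosts with repeated falls were Pitpnc1 (8 of 9 entries), Ptprd (8 of 16), Alcam (7 of 8), Dock4 (6 of 8), Larp1b (6 of 12) and Cstf3, a factor of messenger 3′ end cleavage (4 of 4). Gk, glycerol kinase, which readies glycerol for glucose production, had 4 rises in 4 entries, with log2 changes of 0.61 to 0.96. Those at 40.0, 42.0 and 42.9 kb overlap in a chain, so they can share reads and count as 1 place. The Gk entry at 42.9 kb had 11.7, 9.60, 9.21 and 10.4 CPM in fasted and 5.34, 4.64, 4.93 and 6.08 CPM in ad libitum livers, with no overlap between the groups. All 4 entries of Pwp1 rose too, with log2 changes of 1.17 to 2.98, and none of them passed in fasted replicate 4, where the values were 0.63 to 2.26.

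Adk, the kinase that clears adenosine, held changes in both directions at different places. The 5 entries from 108 to 153 kb fell, by 0.32 to 0.84 on the log2 scale, while the 2 at 299 and 338 kb rose, with log2 changes of 0.88 and 0.84. Between them, 7 entries at 197 to 248 kb had log2 changes of 0.24 to 0.38 and did not pass. The entries at 152 and 153 kb overlap, as do those at 218, 220 and 221 kb, so these can share reads. Summed, the 5 that fell had 142, 145, 143 and 145 CPM in fasted livers, against 190, 207, 192 and 196 CPM in ad libitum livers. The 2 that rose had 78.6, 82.4, 71.7 and 86.1 CPM in fasted livers, against 54.2, 39.7, 34.9 and 46.0 CPM in ad libitum livers. The ratio of the second sum to the first was 0.554 ± 0.0402 in fasted and 0.223 ± 0.0470 in ad libitum livers, a description of entries chosen by their calls. Fasted replicate 4, at 0.595, had the highest ratio of the 8 libraries, and in it 4 of these 7 entries passed. GENCODE annotates transcript starts within Adk at 265.6 and 316.5 kb.

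Zfhx3, a homeodomain transcription factor, had 1 fall at 26.0 kb and 4 rises between 617 and 632 kb. The entry that fell (chr8:107968607-107969214) had 3.94, 4.77, 4.58 and 3.94 CPM in fasted and 8.34, 7.91, 8.58 and 6.23 CPM in ad libitum livers (log2 change -0.85 ± 0.13, adjusted p = 0.00054, edgeR). All 10 entries at 614 to 637 kb were positive, also in fasted replicate 4, at levels of under 1 CPM in every library, and each overlaps an entry on the opposite strand. In Erc2, 4 entries fell and 1 at 346 kb rose, with 16.3, 16.8, 14.9 and 18 CPM in fasted and 12.8, 13.5, 13 and 13.5 CPM in ad libitum livers (log2 change 0.32, adjusted p = 0.034, edgeR). The 13 hosts with both directions held 24 entries that rose. Fasted replicate 4 lay above every ad libitum library in 14 of them and not in the other 10. Among those 10, the Cdh12 entry at 160 kb had 2.26, 2.17, 2.10 and 0.150 CPM in fasted and 0.0286, 0.180, 0.158 and 0 CPM in ad libitum livers, with fasted replicate 4 inside the ad libitum range (log2 change 4.31, and 0.84 in fasted replicate 4, adjusted p = 0.73, edgeR). The Slit3 entry at 190 kb had 1.45, 1.01, 0.941 and 0.0748 CPM in fasted and 0.0286, 0.108, 0.158 and 0.0574 CPM in ad libitum livers, again with fasted replicate 4 at the ad libitum level. The Adamtsl1 entry at 283 kb was alike, with log2 changes of 2.77 in all fasted libraries and 0.03 in fasted replicate 4.

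**Figure D4:**
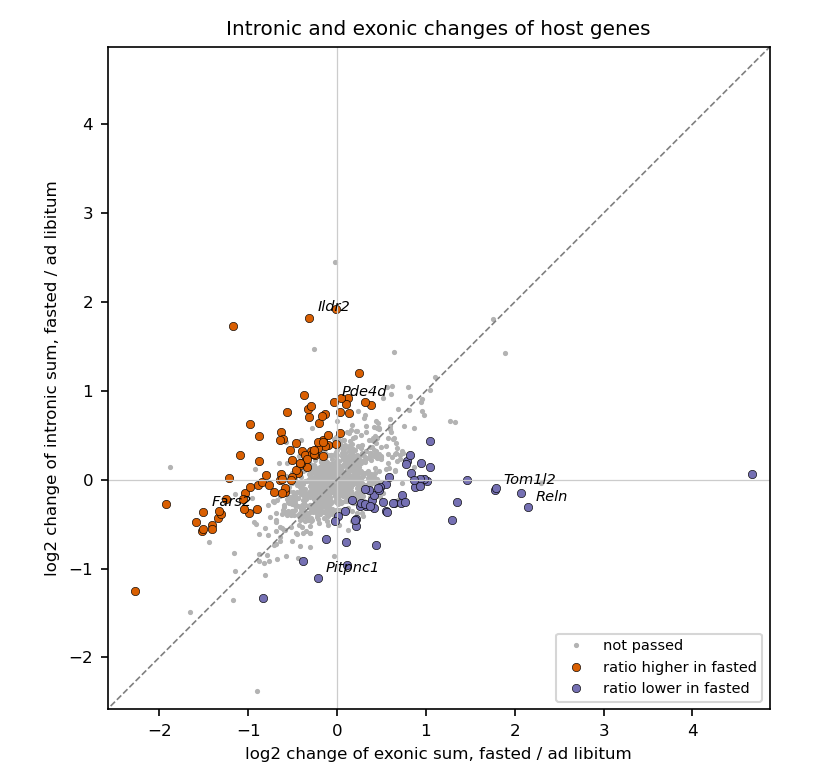
Log2 change, fasted over ad libitum, of the summed intronic transcripts (vertical axis) against that of the summed catalogue transcripts over exons (horizontal axis) for 1108 host genes, coloured where the ratio of the sums changed (adjusted p under 0.05, limma), with a dashed line at equal change. Most coloured points lie nearer to 0 on the vertical than on the horizontal axis, and Pde4d and Ildr2 lie high above the line.

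Intronic signal was next set against the catalogue transcripts over the exons of the same gene. Those exonic entries are non-coding catalogue entries that share exon bases on either strand, so their sum is not the full messenger RNA. Of 2043 hosts with both kinds of entry, 1108 had at least 1 mean CPM in both sums. The log2 ratio of intronic to exonic signal per library differed between the groups for 145 of them (13.1%) in limma, with 87 ratios higher (7.85%) and 58 lower (5.23%) in fasted livers. At an unadjusted p under 0.05, 338 hosts passed. In 95 of the 145 the intronic sum differed less between the groups than the exonic sum, and in 92 the 2 log2 changes had opposite signs. Over all 1108 hosts, 710 had the same sign in both, and the SD of the log2 change was 0.37 for intronic and 0.47 for exonic sums. Choosing hosts by a changed ratio favours opposite signs, so the 95 and 92 are descriptions of the chosen hosts. Across the 1108 hosts the 2 log2 changes, which come from the same libraries, had a Pearson r of 0.39 and a Spearman rho of 0.41, as a description. For 36 of the 145, all exonic entries lay on the opposite strand, beside 157 of all 1108 hosts tested. In fasted replicate 4 alone, 7 hosts passed, and all 145 had the same sign there. Fasted replicate 4 is among the libraries that gave the 145 calls, so the shared sign is partly built in. Without fasted replicate 1, 50 ratios were higher and 25 lower, without fasted replicate 2, 50 and 31, and without fasted replicate 3, 55 and 23. Without ad libitum replicate 1, 2 or 3, 32, 37 or 33 were lower. With same-strand exonic entries only, 98 of 915 hosts passed, 71 higher and 27 lower.

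Fars2 had the lowest p among ratios that were higher in fasted livers. Its exonic sum was 31.7, 32.0, 40.1 and 43.8 CPM in fasted and 102, 113, 104 and 101 CPM in ad libitum livers, while its intronic sum was 7.18, 5.76, 7.29 and 7.73 CPM in fasted and 8.66, 9.06, 10.1 and 8.15 CPM in ad libitum livers. The groups overlapped in neither sum, and the log2 ratio change was 1.16 ± 0.13 (adjusted p = 0.0006, limma). In Fmn1, an actin nucleator, the exonic change was -1.93 and the intronic change -0.28 (log2 ratio change 1.60, adjusted p = 0.00084, limma). Of its 9 exonic entries, 6 lay on the opposite strand. In 2510009E07Rik the exonic and intronic changes were -0.88 and 0.49 (1.36, adjusted p = 0.00078, limma). In Ildr2 and Sulf2 the intronic sums differed more between the groups than the exonic sums. Ildr2 had 3.86, 3.57, 2.69 and 3.62 CPM over introns in fasted and 1.17, 0.539, 0.946 and 1.22 CPM in ad libitum livers, against an exonic log2 change of -0.31 (log2 ratio change 2.17, adjusted p = 0.00089, limma). Sulf2 had an exonic log2 change of -0.01 and an intronic one of 1.92 (log2 ratio change 1.91, adjusted p = 0.0011, limma), with all 3 of its exonic entries on the opposite strand.

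Pde4d gave the same kind of pattern over 26 intronic entries, and 5 of its 7 exonic entries lay on the opposite strand. Its intronic sum was 45.9, 45.1, 38.3 and 49.3 CPM in fasted and 24.7, 21.8, 20.3 and 30.7 CPM in ad libitum livers, while its exonic sum was 44.0, 45.7, 44.5 and 52.3 CPM in fasted and 46.0, 47.5, 48.1 and 50.2 CPM in ad libitum livers. The intronic sums did not overlap between the groups and the exonic sums did, with a log2 ratio change of 0.93 ± 0.14 (adjusted p = 0.002, limma) and of 0.91 in fasted replicate 4 (adjusted p = 0.10, limma).

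Ratios lower in fasted livers were led by Tom1l2, an endosomal adaptor. Its exonic sum was 21.8, 24.1, 17.8 and 18.6 CPM in fasted and 4.77, 8.02, 5.36 and 5.83 CPM in ad libitum livers, while its intronic sum, at 4.25, 3.78, 4.16 and 4.24 CPM in fasted and 4.14, 4.66, 4.57 and 4.48 CPM in ad libitum livers, overlapped between the groups (log2 ratio change -1.91 ± 0.17, adjusted p = 0.00011, limma). Of its 4 exonic entries 3 lay on the opposite strand. In Pitpnc1 the intronic sum differed more, with log2 changes of -1.10 over introns and -0.22 over exons (log2 ratio change -0.88, adjusted p = 0.0011, limma). Tiam2, an activator of Rac (-1.04), Tmem135 (-0.76) and Osbpl1a, an oxysterol-binding protein (-0.94), completed the 5 lower ratios of lowest p. On the opposite strand lay 3 of 4 exonic entries of Tiam2 and all 3 of Osbpl1a. Of 76 hosts in the gene lists, 15 passed (19.7%), beside 13.1% of all hosts tested. The ratio was higher in 10, among them Sesn3, Pde4d, Glud1, Acaca, Zbtb7c, Atg7, Nedd4l, Errfi1 and Stat5b, and lower in 5, which were Rara, Smarca2, Reln, Tsc22d3 and Gbe1. All 5 exonic entries of Errfi1, 2 of 2 of Gbe1 and 2 of 3 of Reln lay on the opposite strand. Sesn3 had the lowest p, with an intronic log2 change of 0.76 and an exonic one of -0.56 (log2 ratio change 1.29, adjusted p = 0.0013, limma). The ratio also rose in Acaca (0.88, adjusted p = 0.0038, limma) and Glud1 (0.98, adjusted p = 0.0034, limma), where the exonic log2 changes were -1.41 and -1.52 and the intronic ones -0.52 and -0.57. It fell in Tsc22d3 (-0.52, adjusted p = 0.031, limma), where the exonic change was -0.13 and the intronic change -0.67. In Reln, 1 of the stellate cell markers summed above, the exonic log2 change was 2.15 and the intronic one -0.31 (log2 ratio change -2.26, adjusted p = 0.015, limma), with exonic sums of 45.3, 52.0, 59.6 and 11.5 CPM in fasted and 8.29, 13.8, 6.98 and 8.95 CPM in ad libitum livers. Fasted replicate 4 lay inside the ad libitum range there, and its ratio change was -0.69 (adjusted p = 0.28, limma).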

How the data were processed

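Total RNA of 8 mouse livers was sequenced with a stranded total RNA kit, per the labels' protocols, from 1 µg of RNA. The deposited table gives raw read counts per catalogue transcript, which the authors made from reads converted with bcl2fastq 2.17 and aligned with BWA to mm10, per the submitters' processing notes. How reads were counted, by strand or not, and what was done with multi-mapping reads is not given in the sources used here. Deposited RPKM values, per the file headers reads per kb and library size, were not tested. The CNCI score of coding potential is the authors' deposited value. Groups came from the column headers and sample labels.

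Hosts, exons and strands came from GENCODE release 21 on the same build. The counts were fitted with edgeR 4.0.16 (R 4.3.3), by a robust quasi-likelihood test with TMM scaling and filterByExpr on all transcripts, with the mitochondrial 16S entry left out, 4 against 4 libraries, and Benjamini-Hochberg adjustment over the 40840 tested transcripts. A transcript passed at an adjusted p under 0.05. Fasted replicate 4 was compared with the ad libitum libraries by a term for fasted replicates 1 to 3. The ratio of summed intronic to exonic CPM per host was tested with limma 3.58.1 on the log2 scale, with a prior count of 2 reads and at least 1 mean CPM in both sums. The scripts were tested on simulated data. For the count test, 80, 68 and 52 of 40840 transcripts were changed by 1.5, 2 and 4 times. It recovered 2.5% of 1.5-fold, 29.4% of 2-fold and 80.8% of 4-fold changes, and called 9 unchanged transcripts. In the data 17.2% of transcripts passed, so these rates do not carry over to the real fit. For the ratio test, 72, 60 and 68 of 1108 hosts were changed by the same folds. It recovered 69.4, 95 and 98.5% of them, and called 5 unchanged hosts. The shares of changed members were unlike, so the rates of these tests cannot be compared. A transcript that did not pass can thus still differ between the groups. Library totals are given with the results.

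The transcripts, gene lists and tests were chosen with earlier results of these data known. Named are the 10 largest rises and falls that passed with a mean of 1 CPM or more in either group and no overlap (1 per host), and the 10 most abundant (1 per host). Named as well are up to 3 passing transcripts of lowest p per gene list (or the largest change where none passed), the 5 hosts with most tested transcripts, the 5 hosts of lowest p in each direction of the ratio, and the 3 transcripts on each side of the read limit. Other names were chosen after their values were seen. Of 28 lists, 21 had a tested transcript. The lists of ketone bodies, bile acids and the markers of hepatocytes, endothelial cells, Kupffer cells, cholangiocytes and red cells had none. Alternatives were other scalings, filters and tools (DESeq2 1.42.0, limma-voom), a replicate block, each library left out, and other rules for the transcripts. Sequence features of the transcripts themselves were not analysed here.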

Additional observations from a re-analysis of the deposited data

Results flagged for a closer look

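Among 172 groups of 4 libraries examined, 10 held a library far from the other 3, and chance gives this in about 1 group in 20. In fasted livers, the low library was fasted replicate 4 in Mboat2, at 0.299 CPM, with the others at 1.19 to 1.31 CPM. High fasted libraries were found in Immp1l (103 CPM, the others 88.2 to 89.9 CPM), Tsc22d3 (16.1 CPM, the others 11.7 to 12.2 CPM), a second Zbtb20 entry (2.83 CPM, the others 2.14 to 2.26 CPM) and Reln (0.255 CPM, the others 0.173 to 0.178 CPM). High ad libitum libraries were found in Carmil1 (4.46 CPM, the others 2.69 to 2.87 CPM), Adk (66.6 CPM, the others 59.1 to 59.4 CPM), Abca1 (11.7 CPM, the others 8.74 to 8.96 CPM) and Por (17.1 CPM, the others 13.1 to 13.6 CPM). The exonic sum of 2510009E07Rik was 11.5 CPM in 1 ad libitum library and 8.44 to 8.85 CPM in the other 3.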

How the results depend on the processing

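The number that rose (341) was 76 in fasted replicate 4 alone and 217 with library totals in place of TMM, and the number that fell (348) was 52 and 180. Of the 689 changed transcripts, 391 remained called in the same direction with library totals. Leaving out each library in turn gave 182 to 583 that rose and 193 to 451 that fell. The 2-fold count (237) was 81 in fasted replicate 4, 78 with at least 1 CPM in 4 libraries, 157 with limma-voom and 151 to 437 with a library left out. DESeq2 gave 416 that rose and 428 that fell. Hosts with an unequal intronic and exonic change (145) numbered 7 in fasted replicate 4 and 75 to 195 with a library left out. In fasted replicate 4, other scalings, filters and tools gave 99 to 182 changed transcripts, against 128. Without mitochondrial entries the share of reads moved alike in both groups, to 1.62% in fasted livers, against 1.44%, and to 1.61% in ad libitum livers, against 1.45%. A replicate block, as an alternative pairing, gave 273 that rose, 280 that fell, 203 changed at least 2-fold and 114 hosts. The numbers did not pair the libraries, since same-numbered deviations correlated at -0.00113 to 0.0397. Of 56 named transcripts that passed, 44 passed in every alternative other than fasted replicate 4 alone. Those in Mboat2, Bhlhb9, Immp2l, Adk, Gls2, Glud1, Ube2e2, Ulk2, Arid1a, Setd5, Trim24 and Bcl6 did not. The direction turned in Srebf2, at 0.02 without fasted replicate 2 (-0.31 to 0.02 over all left-out libraries), and in Lsamp, at 0.01 in fasted replicate 4, neither of which passed. The cause was not tested. Over the alternatives other than fasted replicate 4 alone, list counts that moved by over 1.5 times included gluconeogenesis (3 to 5 rises, against 5), insulin signalling (1 to 4 falls, against 3), growth hormone and IGF genes (0 to 2 rises, against 2) and transcription factors (4 to 12 rises, against 8, and 4 to 16 falls, against 9). For 545 transcripts the reads were too few for a test.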
